A study of Mus musculus with 39 samples.

Results

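Collagens and the matrix genes of hepatic stellate cells were followed in the livers of mice exposed to an aggressor and of their controls. The set holds every mouse gene whose symbol is Col, a number, a and a number, together with Acta2, Tagln, Des, Dcn, Lum, Fbn1, Fn1, Sparc, Lox, Mmp2, Timp1, Timp2 and Timp3. Of 44 such collagen symbols in the RefSeq gene table, 39 had a probe with a RefSeq accession on the array, and with the 13 other genes this gave 52 members among 17016 named genes. Col6a3, Col6a5, Col12a1, Col20a1 and Col22a1 were without such a probe and are not described. Each gene is represented by its brightest probe, and 30 members had more than 1 probe.

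The animals were males of the C57BL/6J strain, singly housed from an age of 5 to 6 weeks. Aggressor-exposed (AggE) mice spent 6 hrs a day, for 5 or 10 days, in a small wire cage inside the cage of an SJL aggressor, with up to 3 short bouts of physical contact per session. Controls (Ctrl) had the same cage and the same hours without food but no aggressor, and all mice of both groups underwent a partition test beside an aggressor shortly before collection, so that no group was without a recent encounter. There were 4 Ctrl and 5 AggE livers at 24 hrs post-5-day, 4 and 5 at 24 hrs post-10-day, 4 and 5 at 1.5 wks post-5-day, and 6 and 6 at 4 wks post-10-day. The labels disagree about the regimen in 2 groups, and the groups here follow the source label of the liver sample. At 1.5 wks that label and the description give 5 days for all 9 mice, whereas the titles of all 5 AggE mice and of 1 of the 4 Ctrl mice carry a 10, so that the length of exposure of these AggE mice is uncertain. At 24 hrs post-5-day the description of all 5 AggE mice names 1 day of stress in 1 place, whereas their titles and source labels give 5. For each of the 39 mice, 1 array compared whole-liver RNA (Cy-5) with a common reference RNA from mouse cell lines (Cy-3), without a dye swap. Values are log2 ratios, liver over reference, for 1 probe per gene, so that a negative value means less signal in liver than in the cell lines, and values of different genes are not set against each other.

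Collagens are built from 3 chains wound into a triple helix. Fibrillar collagens such as types I and III form the tension-bearing fibers of the liver capsule, portal tracts and septa, whereas type IV forms the sheet-like network of basement membranes. In liver, hepatic stellate cells are the main source of fibrillar collagen. At rest they store vitamin A, and once activated they take on a contractile phenotype with smooth muscle actin (Acta2) and transgelin (Tagln) and secrete collagen together with TIMP1, an inhibitor of the enzymes that break matrix down. Smooth muscle cells, portal fibroblasts and endothelial cells contribute to the same transcripts. Fewer cells of a type and less RNA per cell cannot be told apart in whole liver.

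The sequences upstream of the start site are shown for 4 members on which the results below turn, 1 for each of the type I, type III and type VI collagens and 1 for the inhibitor TIMP1. They are the 120 bases before the annotated start, 5′ to 3′ on the strand of the gene, from the RefSeq promoter table of GRCm38.p6. Capitals mark a match to a searched motif. These are chr6:4505498-4505617 (plus strand) for Col1a2, chr1:45311418-45311537 (plus) for Col3a1, chr10:76726045-76726164 (minus) for Col6a1 and chrX:20870046-20870165 (plus) for Timp1.
Col1a2: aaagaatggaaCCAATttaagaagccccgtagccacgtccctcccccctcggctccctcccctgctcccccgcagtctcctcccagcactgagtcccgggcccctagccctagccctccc
Col3a1: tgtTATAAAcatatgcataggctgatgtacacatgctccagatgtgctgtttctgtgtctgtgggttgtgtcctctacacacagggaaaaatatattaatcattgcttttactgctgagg
Col6a1: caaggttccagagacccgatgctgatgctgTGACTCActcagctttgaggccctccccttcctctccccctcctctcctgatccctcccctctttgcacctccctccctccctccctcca
Timp1: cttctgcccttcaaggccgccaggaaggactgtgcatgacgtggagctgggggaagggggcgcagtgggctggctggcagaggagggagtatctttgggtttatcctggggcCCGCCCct
The match is CCAAT in Col1a2, TATAAA in Col3a1, TGANTCA in Col6a1 and, on the other strand, GGGCGG in Timp1. In the 250 bases before the start, both strands searched, CCAAT was found in 15 of the 42 promoters that the table holds for 39 members, against 33.8% of all 32851 promoters. GGGCGG was found in 26 of 42 against 32.7%, TATAAA in 5 against 12.4%, TGANTCA in 1 against 6.75% and the CArG box of smooth muscle genes in 1 against 1.47%. These are matches of letters and not shown to be binding sites. The promoter windows of Col4a1 and Col4a2, which lie head to head on chromosome 8 and encode the partner chains of the type IV network, share 78 of their 300 bases.

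Many members were weakly expressed. By the mark that the scanner software gives a spot well above background in Cy-5, and by the brightest probe of each gene, 14 members were measured on all 39 arrays: Col1a1, Col1a2, Col3a1, Col5a3, Col8a1, Col18a1, Acta2, Tagln, Dcn, Fn1, Sparc, Timp1, Timp2 and Timp3. A further 32 were above background on some arrays and 6 on none, namely Col4a3, Col17a1, Col26a1, Col28a1, Fbn1 and Lox. A second probe was above background on 1 array for Col17a1 and on 1 for Fbn1. Of 11 markers of resting and activated stellate cells, Colec11 and Reln were above background on all arrays, Vim on 38, Cygb on 36, Lrat on 27 and Gfap on 3, and all 5 hepatocyte markers on the array were above background throughout. The arrays differed in brightness. The share of all probes above background was 25.3% to 31.0% in Ctrl and 15.7% to 28.2% in AggE at 24 hrs post-5-day, 30.8% to 44.3% and 32.1% to 44.2% at 24 hrs post-10-day, 18.6% to 41.0% and 15.2% to 47.7% at 1.5 wks, and 46.1% to 70.4% and 42.0% to 57.0% at 4 wks. At both 24 hrs time points no slide held Ctrl and AggE arrays together, and there slide and group cannot be told apart. The arrays were scanned on 2 days. All 24 hrs arrays fell on the earlier day and all 4 wks arrays on the later, and each 1.5 wks group held 1 array of the later day.

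In each of the 4 comparisons of AggE with Ctrl, at most 1 of the 52 members passed the test. At 24 hrs post-5-day 31 members were higher and 21 lower in AggE, and 1 passed an adjusted p of 0.05 (limma, Benjamini-Hochberg over all RefSeq probes), where 3.14% of all genes did. That member, Col8a2, was not above background on any array of either group, and no fold is given for it. At 24 hrs post-10-day 32 were higher and 20 lower and 0 passed, against 0.094% of all genes. At 1.5 wks post-5-day 12 were higher and 40 lower and 0 passed, against 0% of all genes, with 3 below an unadjusted p of 0.05. At 4 wks post-10-day 27 were higher and 25 lower, and 1 passed, Col24a1, against 4.12% of all genes.

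The median log2 difference over the members was 0.05, 0.04, -0.05 and 0.01 in the order of the 4 comparisons, and that of all genes was 0.00, 0.00, 0.00 and 0.01. At an unadjusted p of 0.05, 6 members were higher and 2 lower at 24 hrs post-5-day, where 8.06% of all genes were higher and 8.65% lower. The corresponding counts were 3 and 0 at 24 hrs post-10-day (1.65% and 1.23% of all genes), 0 and 3 at 1.5 wks (1.36% and 1.11%) and 1 and 5 at 4 wks (9.84% and 12.7%). Groups did not overlap for 5 members at 24 hrs post-5-day (Col4a6, Col8a2, Col17a1, Des and Timp1), where the groups of 7.33% of all genes did not, for 1 at 4 wks (Col24a1; 1.78% of all genes) and for 0 at 24 hrs post-10-day and at 1.5 wks (1.86% and 0.805%). The map of all members shows how many of these comparisons rest on probes near background.

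**Figure D1:**
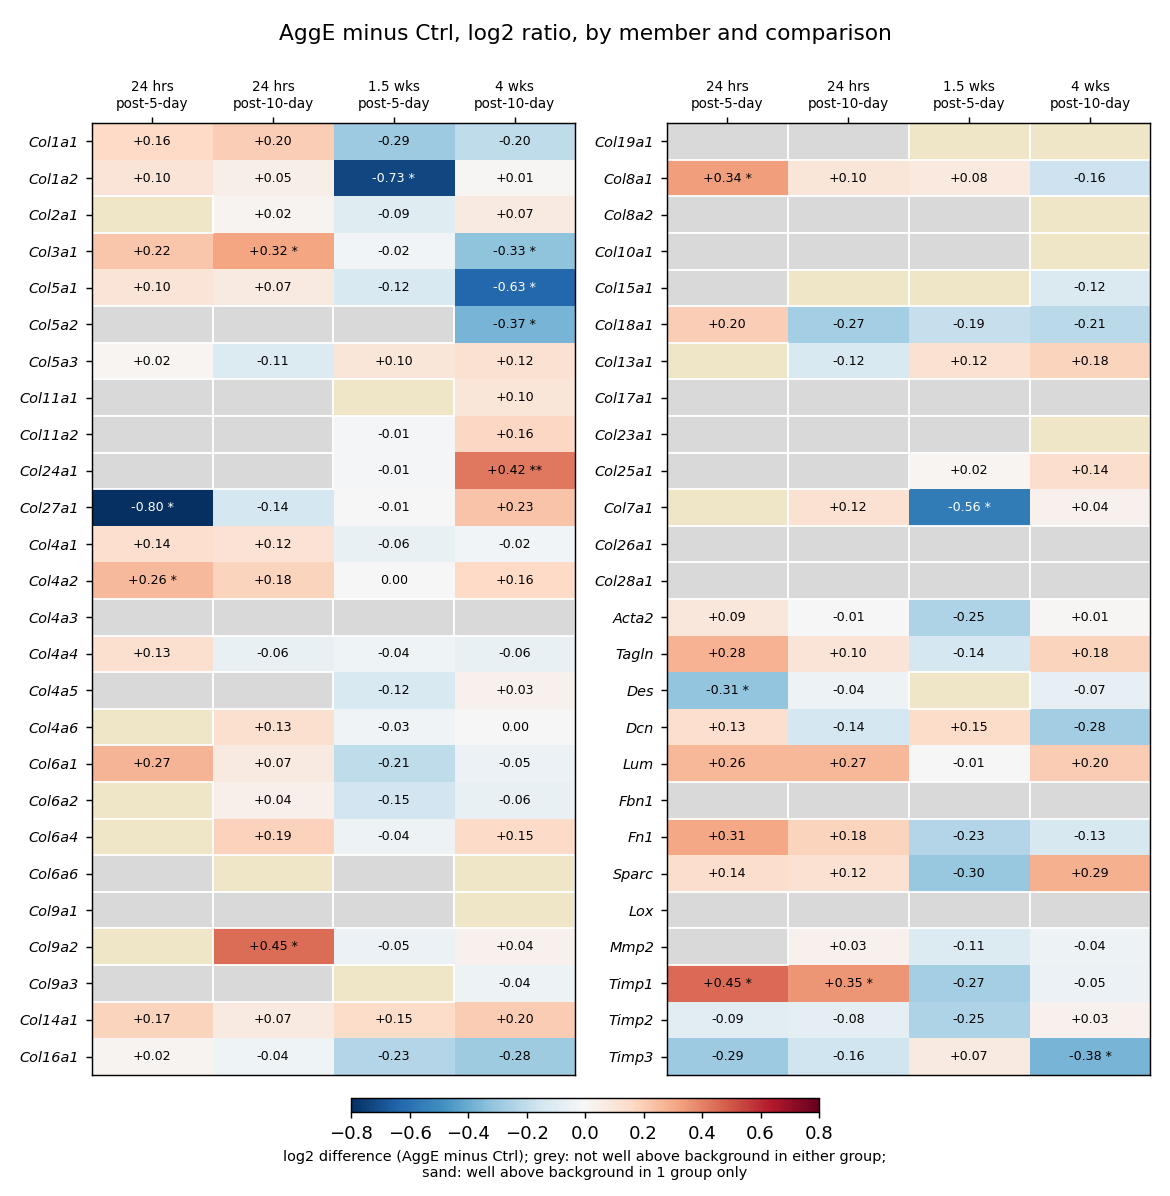
Difference in log2 ratio, AggE minus Ctrl, for each of the 52 members (rows) at the 4 time points (columns); numbers give the difference, 1 asterisk an unadjusted p of 0.05 or less and 2 an adjusted p of 0.05 or less (limma). Grey cells were above background in neither group and sand cells in 1 group only; Col24a1 at 4 wks is the only measured cell with 2 asterisks.

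Type I and type III collagen, the chains that make up most scar tissue, did not pass the test in any comparison. Col1a1 (alpha 1 chain of type I) was -3.97, -3.78, -3.96 and -4.01 in the 4 Ctrl mice at 24 hrs post-5-day and -3.77, -3.81, -3.45, -3.53 and -4.28 in the 5 AggE mice. These ranges overlap, and the difference was 0.16 ± 0.24 (SE; adjusted p = 0.823, limma). With the share of probes above background as a covariate, chosen after the data were seen, it was -0.10 (adjusted p = 0.865, limma). The other 3 differences for Col1a1 were 0.20, -0.29 and -0.20 at 24 hrs post-10-day, 1.5 wks and 4 wks, with 95% intervals of -0.30 to 0.69, -0.79 to 0.20 and -0.63 to 0.22. None of them passed the test, and each interval included 0. A second Col1a1 probe, above background on 30 arrays, gave 0.07, -0.44, -0.11 and -0.20, a sign opposite to the first at 24 hrs post-10-day.

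Col1a2, the partner chain of type I, was lower in AggE at 1.5 wks post-5-day before adjustment. The 4 Ctrl mice had -1.88, -3.59, -1.70 and -2.15 and the 5 AggE mice -2.96, -3.37, -3.62, -3.31 and -2.01. A Ctrl mouse lay with the AggE mice and an AggE mouse with the Ctrl mice, and the difference was -0.73 ± 0.30 (SE; adjusted p = 1, limma). On the 1 slide that held both groups, the 1 AggE mouse exceeded the mean of 3 Ctrl mice by 0.38, and with the slide as a fixed block the difference was 0.001. Without Ctrl mouse 2, the one among the AggE mice, it was -1.15 (adjusted p = 0.404, limma). At the other time points the differences in Col1a2 were 0.10, 0.05 and 0.01.

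Col3a1, the single chain of type III collagen, was higher in AggE at 24 hrs and lower at 4 wks after the 10-day regimen, in both cases short of the threshold after adjustment. At 24 hrs post-10-day the Ctrl mice had -3.61, -3.37, -3.59 and -3.57 and the AggE mice -2.92, -3.19, -3.25, -3.36 and -3.38. A single Ctrl mouse reached into the AggE range, and AggE was higher by 0.32 ± 0.13 (SE; adjusted p = 1, limma), a 1.24-fold difference. At 4 wks post-10-day the lowest, median and highest values were -3.40, -3.15 and -2.91 in Ctrl and -3.66, -3.47 and -3.23 in AggE. AggE was then lower by 0.33 ± 0.11 (SE; adjusted p = 0.0864, limma) with overlapping ranges, and at the remaining time points the differences were 0.22 and -0.02. With the share of probes above background as a covariate, a setting added after the data were seen, the difference at 4 wks was -0.34 and passed (adjusted p = 0.0341, limma).

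The contrast of the 2 comparisons, that is the difference at 24 hrs post-10-day minus that at 4 wks, was 0.64 ± 0.17 for Col3a1 (SE; adjusted p = 0.25, limma). Every AggE mouse was above the Ctrl mean at 24 hrs and below it at 4 wks. With array weights it was 0.60 with an adjusted p of 0.0344. At 4 wks the slide that held both groups gave -0.23 (1 AggE mouse against 3 Ctrl mice), and the 2 slides of Ctrl mice differed from each other by 0.31. A second Col3a1 probe, above background on 2 arrays, gave -0.03 at both time points.

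**Figure D2:**
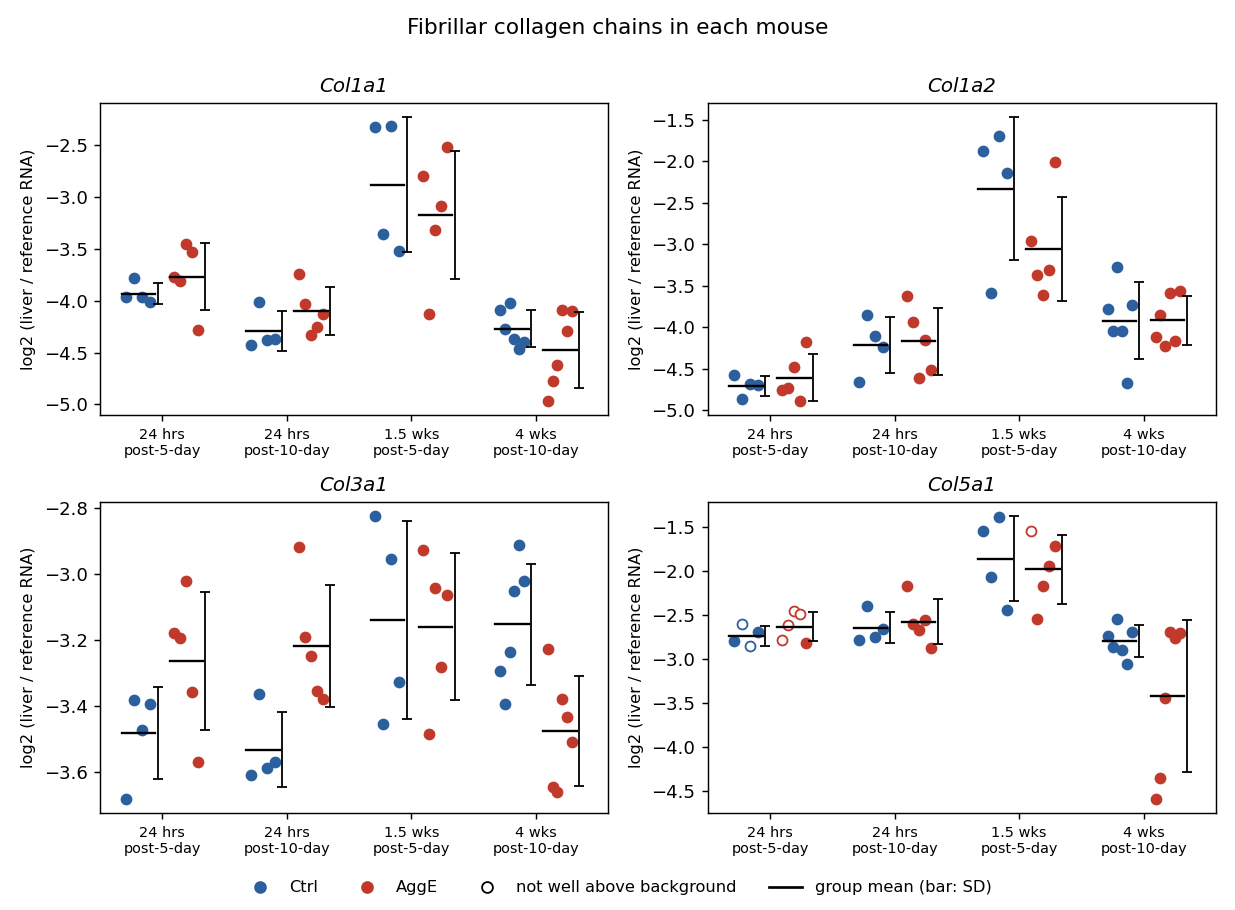
log2 ratio of liver to reference (vertical axis) of Col1a1, Col1a2, Col3a1 and Col5a1 in each mouse, by time point and group (blue Ctrl, red AggE; open circles are spots not well above background; line and bar are group mean and SD). Values of Col1a1 and Col1a2 are highest in both groups at 1.5 wks, and Col3a1 of AggE mice lies mostly above Ctrl at 24 hrs post-10-day and mostly below it at 4 wks.

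Among the minor fibrillar collagens, Col24a1 passed the test at 4 wks. At 4 wks post-10-day the lowest, median and highest Ctrl values were -0.11, 0.03 and 0.17 and those of AggE 0.28, 0.40 and 0.89. The groups did not overlap, and AggE was higher by 0.42 ± 0.10 (SE; adjusted p = 0.021, limma), a 1.34-fold difference, with the probe above background on all 12 arrays. At 1.5 wks it was above background on 1 array of each group, AggE mouse 2 and Ctrl mouse 4, with a difference of -0.01. At both 24 hrs time points it was above background on none. Those of 1.5 wks were the only arrays of that time point scanned with the 4 wks arrays. Col24a1 was thus above background on every array of the later scan day and on none of the earlier. A second Col24a1 probe, never above background, gave 0.03 at 4 wks. With the processed signals of the scanner software the difference was 0.91 (adjusted p = 0.568), and with Cy-5 alone it was 0.12 (adjusted p = 0.739).

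Col5a1 and Col5a2, chains of type V collagen, which nucleates type I fibrils, were lower in AggE at 4 wks before adjustment. Col5a1 had a lowest, median and highest value of -3.06, -2.80 and -2.54 in Ctrl and of -4.60, -3.10 and -2.70 in AggE. The difference of -0.63 ± 0.24 (SE; adjusted p = 0.126, limma) went with AggE mice 1 to 3, at -4.60, -4.36 and -3.45, while mice 4 to 6 were inside the Ctrl range, and it was -0.39 without AggE mouse 1. A second Col5a1 probe gave 0.15, and without normalization between arrays the difference was 0.33. Over 27 alternatives the Col5a1 difference ranged from -1.32 to 0.33, with a lowest adjusted p of 0.0357 (limma). Col5a2 was lower by 0.37 (adjusted p = 0.194, limma), with 2 AggE and 1 Ctrl arrays above background, and it was 0.43 higher without normalization between arrays. Without AggE mouse 2 the difference was -0.24.

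Col27a1 was lower in AggE at 24 hrs post-5-day. Ctrl mice had 1.23, 0.56, 1.35 and 1.40 and AggE mice -0.05, 0.33, 0.05, 0.04 and 1.3. The fifth AggE mouse, hybridized on another slide than the first 4, lay within the Ctrl range, and the difference was -0.80 ± 0.32 (SE; adjusted p = 0.174, limma). It passed without background correction (-1.78; adjusted p = 0.0214), with an offset of 16 (-1.47; adjusted p = 0.0349) and with Cy-5 alone (-0.59; adjusted p = 0.0187), and over all alternatives it ranged from -2.82 to -0.55. Its probe was above background on 4 Ctrl and 2 AggE arrays, and a second probe gave -0.30. Its differences at the later time points were -0.14, -0.01 and 0.23. Col2a1, Col5a3, Col11a1 and Col11a2 differed by -0.11 to 0.16 wherever both groups had arrays above background. A second Col2a1 probe, above background on 20 arrays against 27 for the first, was lower in AggE at 4 wks by 0.61 ± 0.18 (SE; adjusted p = 0.046, limma), where the first gave 0.07, so that the probes disagree and the call rests on the choice of probe.

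Of the basement membrane collagens, Col4a2 was higher in AggE at 24 hrs post-5-day, with -1.02, -0.90, -0.78 and -0.83 in Ctrl and -0.58, -0.40, -0.66, -0.66 and -0.84 in AggE. One AggE mouse lay in the Ctrl range, and the difference was 0.26 ± 0.12 (SE; adjusted p = 0.258, limma), with 0.30 from a second probe. Col4a1, whose product pairs with that of Col4a2, differed by 0.14 at the same time point, 0.12 at 24 hrs post-10-day, -0.06 at 1.5 wks and -0.02 at 4 wks. Col4a6, a chain of the same network, was above background on 4 of 4 Ctrl and 0 of 5 AggE arrays at 24 hrs post-5-day. Its values were 0.38, 0.38, 0.35 and 0.45 in Ctrl and 0.10, -0.02, -0.09, -0.28 and 0.16 in AggE, without overlap. The difference in log2 ratio was -0.42 (adjusted p = 0.294, limma), and no fold is given because AggE was below background. The deviation of Col4a6 from its group means correlated with the share of probes above background at r = 0.79 over 39 arrays, and with that share as a covariate the difference was -0.13 (adjusted p = 0.68, limma).

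The remaining collagen classes had few differences. Col8a1, a short-chain collagen of vessel walls, was -3.07, -2.91, -3.16 and -2.97 in Ctrl and -2.77, -2.46, -2.63, -2.61 and -2.98 in AggE at 24 hrs post-5-day. The difference was 0.34 ± 0.16 (SE; adjusted p = 0.256, limma), with 1 AggE mouse among the Ctrl mice. Col7a1, the chain of anchoring fibrils, was lower by 0.56 ± 0.20 at 1.5 wks (SE; adjusted p = 1, limma), where Ctrl mice had 0.39, 0.15, 0.74 and 1.13 and AggE mice 0.00, 0.11, -0.04, -0.05 and 0.21. Col9a2 was higher by 0.45 ± 0.12 at 24 hrs post-10-day (SE; adjusted p = 0.505, limma), with 4 AggE and 2 Ctrl arrays above background. Over 23 alternatives this difference was 0.22 to 1.58. Col18a1, the source of endostatin and the collagen that hepatocytes themselves make, was above the reference in all groups and differed by 0.20, -0.27, -0.19 and -0.21. A second Col18a1 probe gave 0.36, 0.06, 0.29 and 0.23, so that the probes disagree in sign at 3 of the 4 time points. Col6a1 and Col6a2, chains of the beaded filaments of type VI, differed by at most 0.27 wherever both groups were above background, Col14a1 differed by 0.07 to 0.20, and Col15a1 by -0.12 at 4 wks, where both groups were above background.

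Of the contractile genes, Acta2, the usual marker of activated stellate cells, had -2.60, -2.57, -2.77 and -2.58 in Ctrl and -2.71, -2.60, -2.43, -2.51 and -2.43 in AggE at 24 hrs post-5-day. The difference of 0.09 ± 0.19 (SE; adjusted p = 0.885, limma) lay within the spread, and the others were -0.01, -0.25 and 0.01, with 95% intervals of -0.40 to 0.39, -0.64 to 0.14 and -0.33 to 0.35. A second Acta2 probe, above background on all arrays, gave -0.02, 0.05, -0.08 and 0.39, the last with an unadjusted p below 0.05, so that the probes disagree at 4 wks. Tagln differed by 0.28, 0.10, -0.14 and 0.18. Des, the intermediate filament of stellate and muscle cells, was lower by 0.31 at 24 hrs post-5-day (adjusted p = 0.068, limma) with no overlap, but it was above background on 1 array in each group. With the log ratios of the series table it was 0.31 higher (adjusted p = 0.982), and with array weights it was lower by 0.27 and passed (adjusted p = 0.0313). Without array weights, none of the brightest probes of Acta2, Tagln and Des passed the test at any time point.

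Proteoglycans and glycoproteins of the matrix did not pass the test either. Dcn (decorin) and Lum (lumican), which bind collagen fibrils, differed by 0.13 and 0.26 at 24 hrs post-5-day, by -0.14 and 0.27 at 24 hrs post-10-day, by 0.15 and -0.01 at 1.5 wks and by -0.28 and 0.20 at 4 wks. One Ctrl value of Dcn was missing at 24 hrs post-10-day. Fn1 (fibronectin), which hepatocytes secrete in quantity, differed by 0.31, 0.18, -0.23 and -0.13. Sparc, a collagen-binding glycoprotein, differed by 0.14, 0.12, -0.30 and 0.29, and its second probe by 0.47, 0.21, -0.21 and -0.29. The 95% interval of each difference of a brightest probe included 0, the second Sparc probe was below an unadjusted p of 0.05 at 24 hrs post-5-day alone, and Fbn1 (fibrillin), by its brightest probe, and the crosslinking enzyme Lox were below background on all arrays. The gelatinase Mmp2 was measured at 3 time points and differed by 0.03, -0.11 and -0.04.

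**Figure D3:**
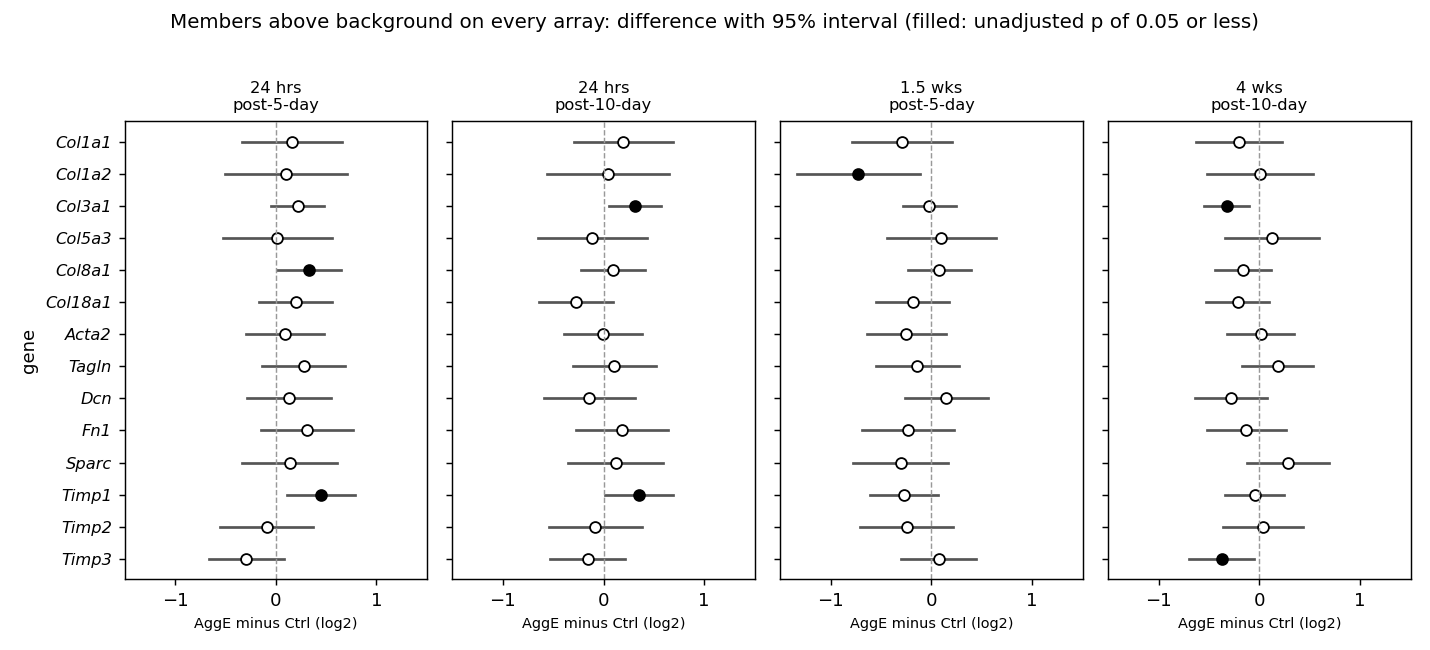
Log2 difference, AggE minus Ctrl, with its 95% interval (limma) for the 14 members above background on all 39 arrays, in 1 panel per time point; filled points have an unadjusted p up to 0.05. At 24 hrs post-5-day 12 of the 14 points lie above 0 and at 1.5 wks 10 of 14 lie below it, with most intervals spanning 0.

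In the 14 members measured everywhere, 12 were higher in AggE at 24 hrs post-5-day, 8 at 24 hrs post-10-day, 4 at 1.5 wks and 6 at 4 wks. With the share of probes above background as a covariate, the counts were 9, 9, 4 and 4 of 14. The deviation from the group means correlated with that share over 39 arrays at r = -0.61 for Col1a1 and -0.50 for Col3a1, the most negative values of the 14, but at -0.10 for Col1a2, 0.01 for Dcn, 0.24 for Tagln and 0.36 for Col5a3. The part of array brightness in the counts was not tested further.

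Timp1 was higher in most AggE mice at both 24 hrs time points, short of the threshold after adjustment. TIMP1 blocks matrix metalloproteinases, and its transcript is induced by inflammatory cytokines in many cell types. At 24 hrs post-5-day the Ctrl mice had -3.35, -3.38, -3.39 and -3.38 and the AggE mice -2.98, -2.96, -2.77, -2.71 and -3.17. All 5 AggE mice were above all 4 Ctrl mice, and the difference was 0.45 ± 0.17 (SE; adjusted p = 0.127, limma), a 1.37-fold difference. At 24 hrs post-10-day Ctrl mice had -3.10, -2.89, -3.13 and -3.18 and AggE mice -2.19, -2.60, -2.72, -2.70 and -3.40. Of the AggE mice, 4 were above all Ctrl mice and 1 below them all, with a difference of 0.35 ± 0.17 (SE; adjusted p = 1, limma), which was 0.22 without AggE mouse 1.

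At 1.5 wks and 4 wks the Timp1 differences were -0.27 and -0.05, neither beyond the spread. The difference at 24 hrs minus that at 1.5 wks post-5-day was 0.73 ± 0.24 (SE; adjusted p = 0.359, limma). A second Timp1 probe, above background on 31 arrays, gave 0.03 and 0.02 at the 24 hrs time points, so that the 2 probes disagree. With the processed signals the first probe gave 0.83 (adjusted p = 0.0494) at 24 hrs post-5-day, and, with slides as random effects, 0.40 (adjusted p = 0.809). Over 23 alternatives this difference was 0.24 to 0.87 and passed in 2, with a lowest adjusted p of 0.0418 (limma).

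The other inhibitors did not pass the test either. Timp3, which is bound to the matrix, was lower in AggE at 4 wks, with a lowest, median and highest value of -2.13, -1.61 and -1.20 in Ctrl and of -2.24, -2.14 and -1.29 in AggE. Of the AggE mice, 5 were between -2.24 and -2.11, and mouse 1 at -1.29 exceeded all Ctrl mice but 1. The difference was -0.38 ± 0.16 (SE; adjusted p = 0.167, limma), but within the slide that held both groups it was 0.12, and the 2 slides of Ctrl mice differed by 0.46. At the other time points Timp3 differed by -0.29, -0.16 and 0.07. Timp2 differed by -0.09, -0.08, -0.25 and 0.03. The last value includes AggE mouse 1 at -5.27, while the other AggE mice at 4 wks were between -4.22 and -3.68.

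**Figure D4:**
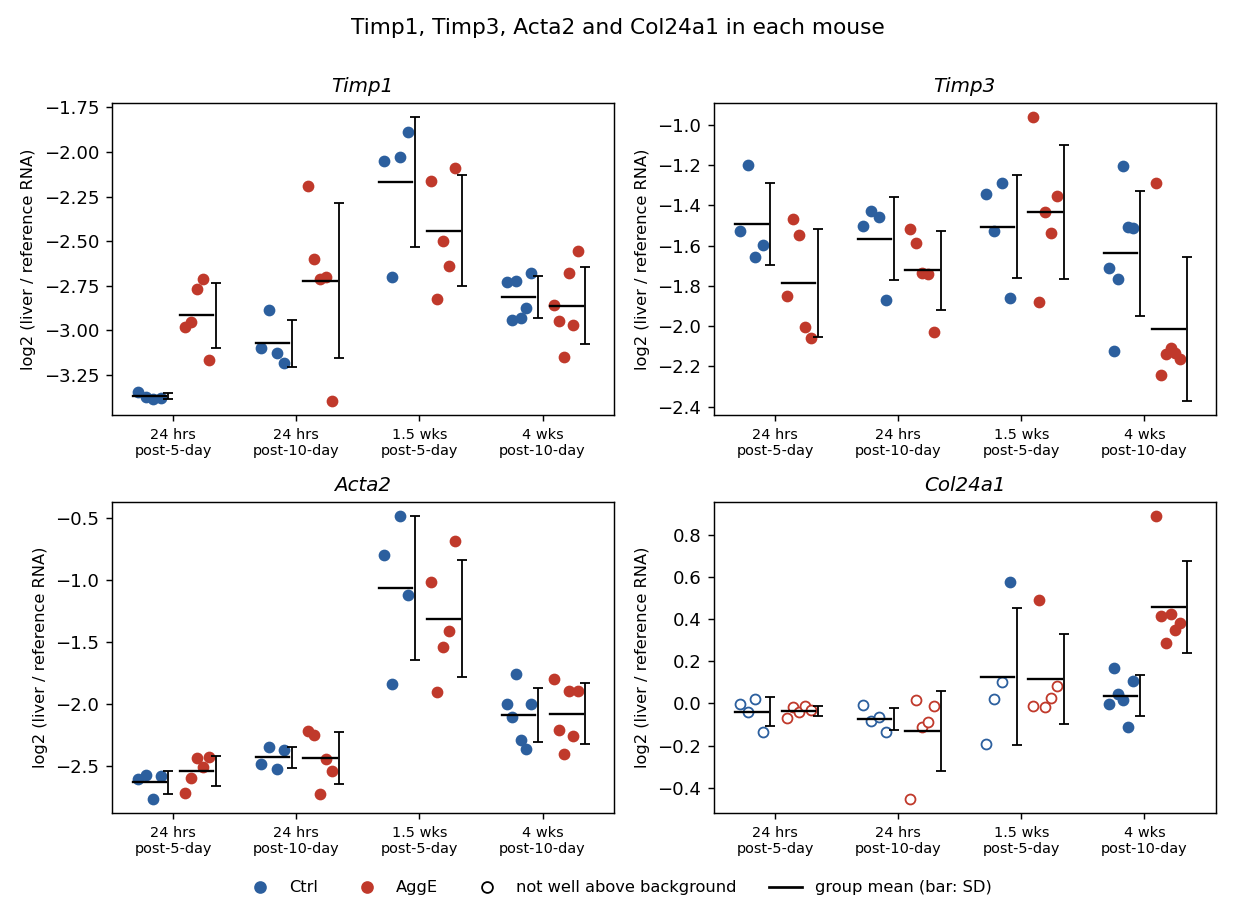
log2 ratio of liver to reference (vertical axis) of Timp1, Timp3, Acta2 and Col24a1 in each mouse by time point and group (blue Ctrl, red AggE; open circles are spots not well above background; line and bar are group mean and SD). Timp1 of all 5 AggE mice lies above Ctrl at 24 hrs post-5-day, Acta2 overlaps at every time point and Col24a1 separates the groups at 4 wks.

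Differences between the time points themselves gave no member an adjusted p of 0.05 or less. For 24 hrs post-5-day minus 24 hrs post-10-day, 2 members had an unadjusted p of 0.05 or less (6.37% of all genes did). For 24 hrs minus 1.5 wks post-5-day there were 5 (7.59%), and for 24 hrs minus 4 wks post-10-day 4 (9.98%). Besides Col3a1 and Timp1, members above background at 1 of the time points or both were Col24a1 (-0.48 ± 0.15 for 24 hrs minus 4 wks; adjusted p = 0.412, limma) and Col9a2 (-0.53 between the 24 hrs time points and 0.41 for 24 hrs minus 4 wks; adjusted p = 0.393 and 0.486). Over the alternatives these Col9a2 values ranged from -4.62 to -0.33 and from 0.28 to 1.91.

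Levels differed between time points in both AggE and Ctrl, which was not tested. Of the 14 members measured everywhere, 10 were below the reference in all 8 groups and 2 above it in all, Col5a3 and Col18a1. The highest of the 8 group means was a 1.5 wks group for 12 of the 14, and for 26 of all 52 members. Acta2 averaged -1.06 ± 0.58 (SD, n = 4) in Ctrl at 1.5 wks and -2.63 ± 0.09 (SD, n = 4) in Ctrl at 24 hrs post-5-day. Col1a1 averaged -2.88 ± 0.65 (SD, n = 4) and -3.93 ± 0.10 (SD, n = 4) in the same groups, and Col1a2 -2.33 ± 0.86 and -4.71 ± 0.12. The median share of probes above background was low in both 1.5 wks groups (22.43% in AggE and 22.45% in Ctrl) but also in AggE at 24 hrs post-5-day (22.56%), and 3 of the 11 slides held arrays of 2 time points. The day of the scan also differed between the 24 hrs and the 4 wks arrays. The part of brightness, slide and scan day in this order was not tested.

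Within groups, mice with more of 1 collagen tended to have more of its partners. After removal of the group means, Col1a1 and Col1a2 correlated over 39 mice with Pearson's r = 0.56 (adjusted p = 0.012) and Spearman's rho = 0.55 (adjusted p = 0.00632), by permutation within groups over 8 pairs tested. Without the 2 mice farthest from the median r was 0.50, and within slides it was 0.79 over 32 mice. Col4a1 and Col4a2 gave r = 0.47 (permutation, adjusted p = 0.02) and rho = 0.51 (adjusted p = 0.0148), with 0.65 without the 2 farthest mice and 0.34 within slides. Col6a1 and Col6a2 gave r = 0.48 (permutation, adjusted p = 0.00996) and rho = 0.42 (adjusted p = 0.025), with 0.43 and 0.54. These 3 pairs encode chains of the same protein. Each was tested against no correlation and not against pairs of other genes.

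Pairs of different proteins were less uniform. Timp1 and Col1a1 gave r = 0.57 (permutation, adjusted p = 0.00996) and rho = 0.59 (adjusted p = 0.00632), with 0.64 without the 2 farthest mice and 0.86 within slides. Col1a1 and Col3a1 gave r = 0.56 (permutation, adjusted p = 0.012) and rho = 0.46 (adjusted p = 0.0339), with 0.50 and 0.79. For Col1a2 and Col3a1 r was 0.28 (permutation, adjusted p = 0.275) and 0.63 within slides. For Acta2 and Tagln it was 0.14 (permutation, adjusted p = 0.591) and 0.37 within slides, and for Dcn and Col14a1 0.02 over 38 mice (permutation, adjusted p = 0.888) and -0.32 within slides. With the share of probes above background also removed, r was 0.63 for Col1a1 and Col1a2, 0.38 for Col1a1 and Col3a1, 0.47 for Col4a1 and Col4a2, 0.42 for Col6a1 and Col6a2 and 0.59 for Timp1 and Col1a1.

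**Figure D5:**
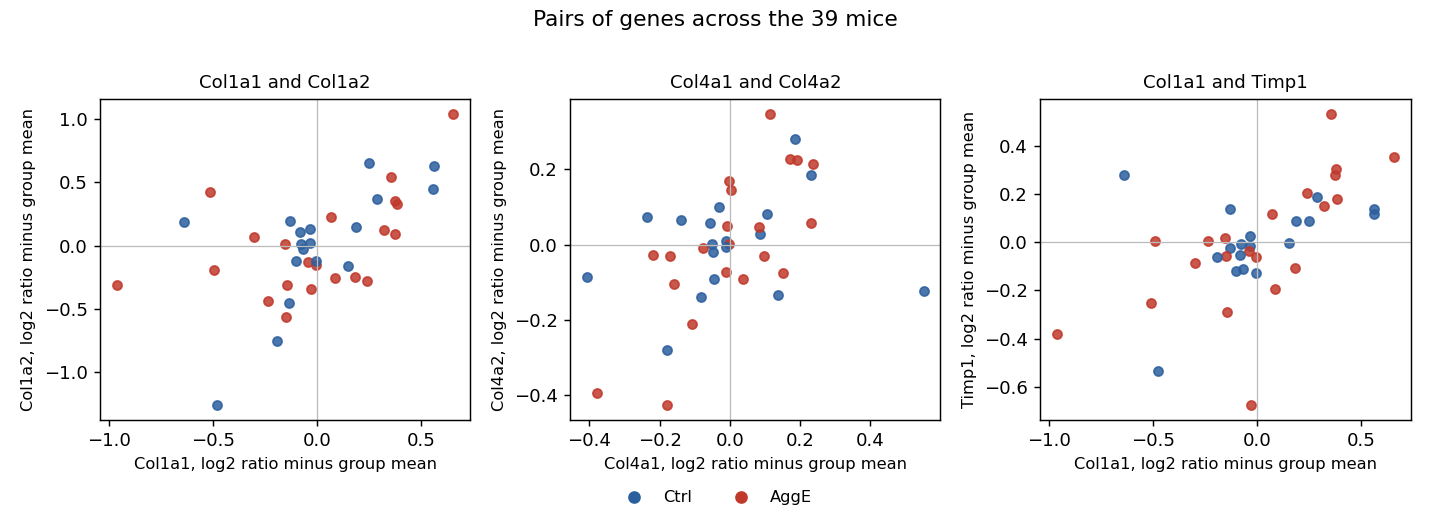
Deviation of each mouse from its group mean (log2 ratio, both axes) for Col1a1 and Col1a2, Col4a1 and Col4a2, and Col1a1 and Timp1; each point is 1 of 39 mice, blue for Ctrl and red for AggE. The points rise together, with r of 0.56, 0.47 and 0.57.

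The genes whose deviations were most like those of Col1a1 and Col3a1, among 8743 genes above background on at least 20 arrays, were Pclaf, a replication clamp factor, Trem2, a macrophage lipid receptor, and the member Col6a1. Each had r = 0.90 with the mean of the pair over the 39 arrays, and 0.84, 0.86 and 0.86 with the share of probes above background removed. Col8a1 had 0.79, Sparc 0.73 and Acta2 0.70, and within slides and groups they had 0.79, 0.71 and 0.82 over 32 arrays. Tagln had -0.03, Dcn -0.15 and Col14a1 -0.56, and within slides and groups 0.46, 0.06 and -0.36. These values describe likeness across arrays that share brightness and carry no test.

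Genes that build collagen held 2 calls of 19 at 4 wks, where 4.12% of all genes were called, and 0 at the 3 other time points (limma). At an unadjusted p of 0.05, 1 was higher (8.06% of all genes) and 2 lower (8.65%) at 24 hrs post-5-day, 0 differed at 24 hrs post-10-day, 1 was higher at 1.5 wks (1.36%), and 3 were higher (9.84%) and 5 lower (12.7%) at 4 wks. Of 19 genes for collagen synthesis and crosslinking, 5 were higher and 14 lower in AggE at 4 wks, with a median of -0.10 against 0.01 for all genes. Serpinh1, the collagen chaperone of the endoplasmic reticulum, had a lowest, median and highest value of -2.90, -2.65 and -2.38 in Ctrl and of -3.42, -3.21 and -2.90 in AggE. The 2 groups just failed to overlap, and AggE was lower by 0.49 ± 0.13 (SE; adjusted p = 0.0332, limma). Bmp1, the protease that removes the carboxyl propeptide of procollagens, went the other way, with 0.19, 0.44 and 0.73 in Ctrl and 0.60, 1.1 and 1.27 in AggE, a difference of 0.57 ± 0.12 (SE; adjusted p = 0.0105, limma).

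The other lists around the matrix held few calls. Of the genes of TGF-beta and PDGF signaling, Bambi, a pseudoreceptor that dampens TGF-beta signaling, was higher by 0.21 in AggE at 4 wks (adjusted p = 0.0404, limma). At the earlier time points 0 genes of this list were called (limma), and at an unadjusted p of 0.05 there were 3 of 20 at 24 hrs post-5-day, all lower (8.65% of all genes), and 0 at 24 hrs post-10-day and 1.5 wks. At 4 wks 2 were higher and 2 lower at that level (9.84% and 12.7% of all genes). Of 17 genes of matrix degradation, 1 was called at 4 wks (4.12% of all genes) and 1 at 24 hrs post-5-day (3.14%). Plg, the plasminogen of hepatocytes, was lower by 0.70 at 4 wks (adjusted p = 0.0498, limma). Reck was called at 24 hrs post-5-day without being above background on any array of either group. At an unadjusted p of 0.05, 1 of the 17 was higher and 2 lower at 24 hrs post-5-day (8.06% and 8.65% of all genes). At 24 hrs post-10-day 1 was higher (1.65%), at 1.5 wks 0 differed, and at 4 wks 1 was higher and 4 lower (9.84% and 12.7%). Of 23 other matrix proteins and 5 collagen receptors, 0 were called at any time point, although 7 of the 23 were lower at 4 wks at an unadjusted p of 0.05 (limma) and 1 higher, where 12.7% of all genes were lower and 9.84% higher.

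Markers of the cell types behind these transcripts were read in the same way. Of the 11 stellate cell markers 0 passed an adjusted p of 0.05 at any time point (limma). At an unadjusted p of 0.05 there was 1 lower at 24 hrs post-5-day (8.65% of all genes), 0 at 24 hrs post-10-day and 1.5 wks, and 2 higher and 3 lower at 4 wks (9.84% and 12.7% of all genes). At 4 wks Cygb was 0.66 higher in AggE (adjusted p = 0.129) and Pdgfra 0.50 lower (adjusted p = 0.0891). The mean log2 ratio over the 11 markers ranged from -0.10 to 0.07 in Ctrl and -0.35 to 0.03 in AggE at 24 hrs post-5-day, and from -0.32 to -0.03 and -0.31 to -0.02 at 4 wks, with 4, 5, 0 and 0 of the markers above background on no array of the group. Of 5 biliary markers, 3 were higher and 2 lower in AggE at 24 hrs post-5-day, with a median of 0.02, and 1 was called, where 3.14% of all genes were. That marker, Spp1 (osteopontin, also made by macrophages and activated stellate cells), rose by 1.28 ± 0.25 at 24 hrs post-5-day (SE; adjusted p = 0.004, limma), with -5.61, -5.25, -5.66 and -5.30 in Ctrl and -4.02, -4.16, -3.60, -3.61 and -5.47 in AggE. At 4 wks all 5 were lower, with a median of -0.23, and 1 was called, Epcam (-0.66; adjusted p = 0.0242, limma), which was above background on 1 Ctrl and 0 AggE arrays. None of the smooth muscle, endothelial, Kupffer cell, leukocyte and hepatocyte markers passed an adjusted p of 0.05 (limma). At an unadjusted p of 0.05, 1 Kupffer cell and 1 hepatocyte marker were higher (8.06% of all genes) and 1 smooth muscle and 1 leukocyte marker lower (8.65%) at 24 hrs post-5-day, and 2 Kupffer cell markers were higher at 24 hrs post-10-day (1.65%). At 1.5 wks there were 0, and at 4 wks 1 smooth muscle marker was higher (9.84%) and 2 Kupffer cell, 1 endothelial, 1 leukocyte and 1 hepatocyte marker were lower (12.7%). All 6 Kupffer cell markers were higher in AggE at 24 hrs post-10-day, with a median of 0.40, and 4 of the 6 were lower at 4 wks, with a median of -0.35. At the same time points 4 of 5 biliary and 4 of 5 hepatocyte markers were higher (medians of 0.05 and 0.12) and then 5 of 5 of each lower (medians of -0.23 both). Markers of neighboring tissues were read too. All 5 skeletal muscle markers were higher at 24 hrs post-10-day, with a median of 0.58, and their mean log2 ratio spanned 0.12 to 1.98 in Ctrl and 0.35 to 2.11 in AggE, with 0 called (limma) and 0 at an unadjusted p of 0.05. All 6 pancreas markers were higher at 4 wks, with a median of 0.13, 2 of them at an unadjusted p of 0.05 (9.84% of all genes) and 0 called (4.12%; limma). Of the 6 pancreas, 4 mesothelium and 5 adipose markers, Cela2a and Upk3b were called at 24 hrs post-5-day (3.14% of all genes), both below background in both groups. At 4 wks Lep was called (0.31 higher; adjusted p = 0.0348, limma), where 4.12% of all genes were. The part of any cell type or tissue in the differences of the collagens was not tested.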

How the data were processed

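Liver RNA (Cy-5) and reference RNA (Cy-3) of 39 arrays were analysed. The authors deposited, per spot, median intensities of the spot and its background, read by Feature Extraction 11.5.1.1, together with processed intensities and log10 ratios of Cy-5 over Cy-3. From the median intensities, normexp (offset 50), loess within and quantile normalization between arrays were run with limma 3.58.1 in R 4.3.3 (statmod 1.5.0 and version 1.17.8 of data.table). Outlier spots, 0.418% to 1.94% of an array, became missing values, controls were left out and spots of a probe averaged (220 probes). Symbols came from RefSeq accessions, and 25903 probes were tested. One limma fit held the 8 group means, with Benjamini-Hochberg adjustment over all probes. Genes named are the 13 other members, the main collagens fixed by name, every member with an unadjusted p of 0.05 or less, and called genes of the lists. Members and lists were chosen with earlier results of these data known. The procedure was tested on simulated data. Alternatives were other background corrections, scalings, probe rules, fits and blocks, and leaving out each array. Few arrays per group limit the precision. Metabolites, proteins and histology were not analysed here, and 1 gene of the lists is not reported here.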

Additional observations from a re-analysis of the deposited data

Results flagged for a closer look

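Single mice that stood apart from their group were looked for in 18 members and 143 groups of 4 to 6 mice. A mouse was listed when the gap to its nearest neighbor took up more of the range of the group than Dixon's 95% limit allows, and 14 were listed. Chance lists about 1 in 20 groups. In AggE at 4 wks post-10-day, mouse 1 was listed for Col24a1 (0.89), Col27a1 (0.08), Timp2 (-5.27) and Timp3 (-1.29), and mouse 4 for Sparc (-2.60). Without mouse 1, the members with an adjusted p of 0.05 or less at 4 wks were Col3a1, Col24a1 and Timp3. In AggE at 1.5 wks, mouse 2 was listed for Col24a1 (0.49) and Col27a1 (1.13). This array, like that of Ctrl mouse 4 at 1.5 wks, was scanned with those of 4 wks. In AggE at 24 hrs, mouse 5 of the 5-day regimen was listed for Col27a1 (1.3) and mouse 1 of the 10-day regimen for Col24a1 (-0.45), which was below background there. Among Ctrl mice, mouse 2 at 24 hrs post-10-day was listed for Col1a1 (-4.01) and Col3a1 (-3.37), mouse 4 of the same group for Timp3 (-1.87), mouse 1 at 24 hrs post-5-day for Col4a1 (-0.66) and mouse 3 at 4 wks for Dcn (0.95).

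Col3a1 was also listed because its difference between AggE and Ctrl ran in opposite directions at the 24 hrs and 4 wks time points of the 10-day regimen, with every AggE mouse above the Ctrl mean at the first and below it at the second. The difference of the differences was 0.64 (adjusted p = 0.25, limma).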

How the results depend on the processing

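Counts of members with an adjusted p of 0.05 or less stayed at 0 at 24 hrs post-10-day and 1.5 wks under every alternative run. At 24 hrs post-5-day the count was 1, and it was 4 without background correction, with processed signals, with Cy-5 alone and with array weights, 3 with an offset of 16, with the ratios of the series table and with the mean over probes, 0 without normalization between arrays, with Aquantile, with probes well above background only, with the groups of the comparison alone and with slides as random effects, and 1 to 2 on leaving out 1 array (2 without AggE mouse 1). At 4 wks the count was 1, and it was 0 without background correction, with processed signals, an offset of 16, Cy-5 alone, the series table or the groups of the comparison alone, 2 with array weights or the slide as a fixed block, 3 with the share of probes above background as a covariate (Col3a1, Col24a1 and Lox, the last below background) and 1 to 3 on leaving out 1 array (3 without AggE mouse 1; 2 without AggE mouse 4, Ctrl mouse 2 or Ctrl mouse 5). Differences between time points had 0 called members, except 1 with processed signals between the 24 hrs time points (Col9a2), 0 to 1 on leaving out 1 array for 24 hrs minus 1.5 wks (Col8a2, without AggE mouse 1 at 24 hrs) and 1 with array weights for 24 hrs minus 4 wks (Col3a1). Of 22 named results, 17 kept their sign throughout. The sign turned for Des at 24 hrs post-5-day with the series table (0.31), Col1a2 at 1.5 wks and Timp3 at 4 wks with the slide as a fixed block (0.001 and 0.038), Col5a1 at 4 wks without normalization between arrays or with Aquantile (both 0.332) and with Cy-5 alone (0.002), and Col5a2 at 4 wks with processed signals (0.115), without normalization between arrays or with Aquantile (both 0.434) and with Cy-5 alone (0.013). The causes were not tested. The deviations of same-numbered mice had correlations of -0.47 to 0.55, and with the replicate number as a block the counts were 1, 0, 0 and 1 in the 4 comparisons. The covariate and the settings for the day of the scan were chosen after seeing the data.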
